A study of Mus musculus with 16 samples.

Results

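The response of Ctrl hearts to pressure overload was described from 8 of the 16 libraries of the series, 4 Ctrl TAC and 4 Ctrl sham, chosen by the genotype and operation in their labels. Over all 16 libraries 18275 of the 55487 genes in the table were expressed highly enough to be tested, and a gene could pass this filter through the KO hearts. Ctrl animals are labelled WT for genotype and carried the lncRNA Cardinal (Gm12295), which the KO animals of the series lack by CRISPR/Cas9 deletion. The study used male mice of 25 to 30 g at surgery, and their strain and age are not given in the sources used here. In TAC animals a suture tied around the transverse aorta over a 26-gauge needle left the vessel narrowed, whereas sham animals had the chest opened without the ligation. Hearts were collected 4 weeks after surgery, and poly(A) RNA from the apex was sequenced as paired 150-base reads. Each library came from a single animal. The apex holds all cell types of the ventricular wall, so a change in a transcript may come from fewer or more cells of a type or from less or more RNA per cell, and these cannot be told apart in any result below.

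A ventricle that ejects against a narrowed aorta carries higher wall stress at every beat. Cardiomyocytes are known to respond by growing wider, by re-expressing genes of the fetal heart such as natriuretic peptides and skeletal alpha-actin, and by drawing less on fatty acids as fuel. Fibroblasts in the same tissue are known to become activated and to deposit collagen and other matrix proteins between the muscle cells, which stiffens the wall.

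Ctrl libraries held 53169437 to 79357479 counts and 24458 to 25919 genes with at least 1 count. The groups separated on the first principal component of log2 CPM (CPM, counts scaled to libraries of equal size), which took 32.6% of the variance and placed Ctrl sham between -36.0 and -24.1 and Ctrl TAC between 19.0 and 35.5. On the next component (18.0%) Ctrl TAC 2 lay at -52.7 and the other 7 libraries between -12.7 and 22.9. In Ctrl TAC 2, 175 genes lay more than 1 log2 above all 7 other Ctrl libraries, against 4 to 14 genes in each of the other Ctrl TAC libraries. Alb, Sftpc, Snap25 and Mup10, which mark liver, lung and nerve, led them. Summed liver markers were at 70.3 CPM in this library and at 3.13 to 6.96 CPM in the other 7, and their part in the results was not tested. The 10 defining markers of cardiomyocytes were present in every library (summed level 46137 to 61811 CPM). Cardinal itself was at 3.69, 3.86, 3.24 and 3.38 CPM in Ctrl sham 1 to 4 and 8.02, 2.69, 3.04 and 3.37 CPM in Ctrl TAC 1 to 4, and the library labelled KO TAC 4, which enters the estimate of spread, had 4.55 CPM against its label. The animal numbers of Ctrl TAC 2, 3 and 4 begin with 25 and those of all Ctrl sham animals and Ctrl TAC 1 begin with 3. What these series stand for is not stated. Of the KO libraries, only KO TAC 4 has a number that begins with 25. An effect of the series can therefore be told apart from TAC only through Ctrl TAC 1 and KO TAC 4, each set against the rest of its group. No fit with a series term left out KO TAC 4.

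Pressure overload changed the level of a large share of the tested genes in Ctrl hearts. In edgeR, 3652 of 18275 genes were called at an adjusted p under 0.05 (20.0%), of which 1898 (10.4%) were higher and 1754 (9.60%) lower after TAC. With 4 hearts in each group, most changes were small, with a median log2 fold change of 0.46 among genes called higher and -0.37 among those called lower. Large changes were mainly rises, since 355 of the 532 called genes that changed by more than 1 log2 were higher and 99 of the 112 that changed by more than 2 log2 were higher. The libraries of the groups did not overlap for 3745 genes (20.5% of all tested) and for 2962 of the called genes (81.1%). The share called grew with the level of the genes, from 5.36% in the least expressed of 5 equal groups by average log2 CPM to 33.9% in the most expressed. Summed over genes, those called higher gained 37207 CPM and those called lower lost 83818 CPM, of which 48375 CPM came from nuclear genes and the remainder from the mitochondrial genome. The TMM factors were 0.9055 to 0.989 in Ctrl sham and 0.9803 to 1.074 in Ctrl TAC libraries. Total CPM was therefore lower in TAC by scaling alone, and the excess of loss over gain is no measure of the response. With the number series as a term in the model 2479 genes were called, 2183 of them among the 3652, and all of these in the same direction. Over the 47 gene lists used below, the series term moved 32 of the counts called higher or lower by more than 1.5 times. Those of 3 or more genes are given beside each list. The count called in each list is to be read beside the 20.0% of all tested genes. Omission of Ctrl TAC 2 gave 3551 calls and omission of KO TAC 4 gave 3502.

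**Figure D1:**
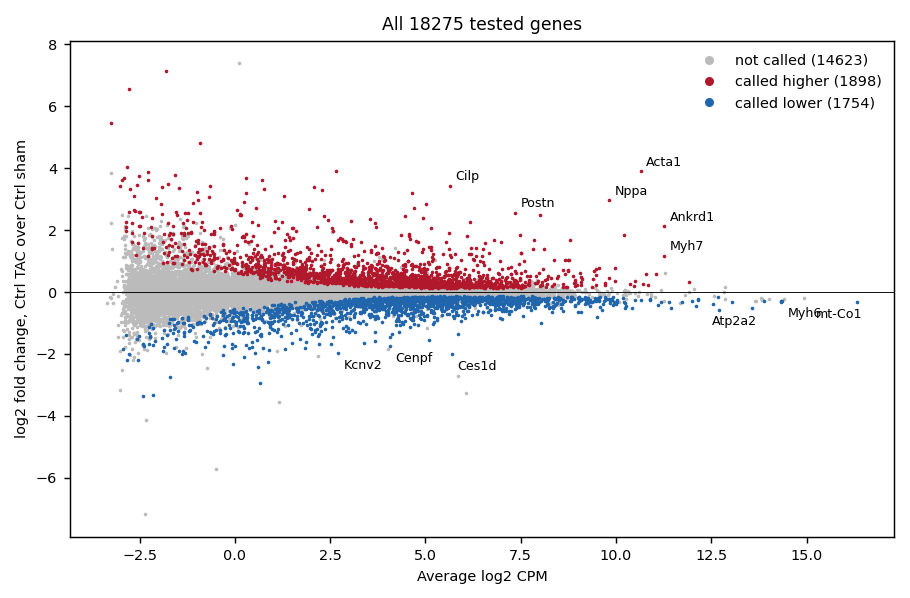
Each point is 1 of 18275 tested genes, with its average log2 CPM on the x axis and its log2 fold change in Ctrl TAC over Ctrl sham on the y axis; red genes were called higher (1898), blue genes called lower (1754) and grey genes not called. Rises reach further from 0 than falls among genes of moderate level, and the mitochondrial and sarcomere genes at the far right, such as mt-Co1 and Myh6, lie below 0.

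The strongest rises fell on sarcomere actin, natriuretic peptides and secreted matrix proteins. By the rule for naming genes (the largest rises among called genes of at least 2 average log2 CPM over all 16 libraries without overlap of the Ctrl groups, predicted genes and pseudogenes aside), these included Acta1, Cilp, Fmod, Ltbp2, Nppa, Adamtsl2, Thbs4, Postn, Nppb, Mfap4 and Aqp8. Fmod was below that level as a mean of the 8 Ctrl libraries and reached it with the KO libraries. Acta1, the skeletal alpha-actin of the fetal heart (chromosome 8, 123891769 to 123894751 on the minus strand in GRCm38), measured 129, 173, 287 and 224 CPM in Ctrl sham 1 to 4 and 3289.6, 2563, 2448 and 3915 CPM in Ctrl TAC 1 to 4. Every TAC heart was far above every sham heart. Acta1 rose by 3.91 ± 0.301 log2 (SE, adjusted p = 1.63e-06). Nppa, which encodes atrial natriuretic peptide (chromosome 4, 148000722 to 148002079, plus strand), measured 89.3, 144, 129 and 159 CPM in Ctrl sham 1 to 4 and 1298, 501, 724 and 1579 CPM in Ctrl TAC 1 to 4. Its groups did not overlap, and the TAC hearts differed more among themselves than the sham hearts did. Nppa rose by 2.98 ± 0.335 log2 (SE, adjusted p = 5.01e-05). Nppb, the brain natriuretic peptide gene beside it, was at 31, 66.7, 69.5 and 103 CPM in Ctrl sham 1 to 4 and 506, 318, 297 and 398 CPM in Ctrl TAC 1 to 4, also without overlap. Nppb rose by 2.49 ± 0.367 log2 (SE, adjusted p = 0.000411). Counting by strand is not stated, so reads of Nppa and of the antisense gene Gm13054 cannot be told apart, and the same holds for each of the 54 genes, among the 176 named here, that have an exon overlapping another annotated gene, such as Ltbp2, Mfap4, Xirp2, Atp2a2, Pln, Penk, Col6a6, Pfkfb1, Phkg1 and Dio2.

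Cilp, a matrix protein of cartilage that activated cardiac fibroblasts also make, was at 2.38, 5.76, 7.30 and 6.75 CPM in Ctrl sham 1 to 4 and 66.3, 42.3, 46.2 and 82.2 CPM in Ctrl TAC 1 to 4. Ctrl sham 1 had the lowest value and all TAC hearts were above all sham hearts. Cilp rose by 3.43 ± 0.305 log2 (SE, adjusted p = 5.93e-06). Periostin (Postn), a matricellular protein that marks activated fibroblasts, was at 22.3, 29.5, 38.6 and 30.7 CPM in Ctrl sham 1 to 4 and 177, 127, 162 and 249.7 CPM in Ctrl TAC 1 to 4, with the highest level again in Ctrl TAC 4. Postn rose by 2.56 ± 0.194 log2 (SE, adjusted p = 8.14e-07). Of the 4 TAC hearts Ctrl TAC 4 was highest for most of these genes, and Ctrl TAC 2 or Ctrl TAC 3 was lowest for each of them. Thrombospondin 4 (Thbs4) was at 3.17 to 4.34 CPM in sham and 16.6 to 41.7 CPM in TAC hearts. Thbs4 rose by 2.72 ± 0.246 log2 (SE, adjusted p = 4.72e-06). Latent TGF-beta binding protein 2 (Ltbp2), a microfibril protein, was at 1.71 to 3.74 CPM in sham and 16.8 to 41.1 CPM in TAC hearts. Ltbp2 rose by 3.22 ± 0.316 log2 (SE, adjusted p = 1.36e-05). The collagen-binding proteoglycan fibromodulin (Fmod) ran from 0.139 to 0.727 CPM in sham hearts, and was at 5.35, 1.46, 4.77 and 6.77 CPM in Ctrl TAC 1 to 4, where Ctrl TAC 2 was well under the other 3. Fmod rose by 3.30 ± 0.481 log2 (SE, adjusted p = 0.000255).

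**Figure D2:**
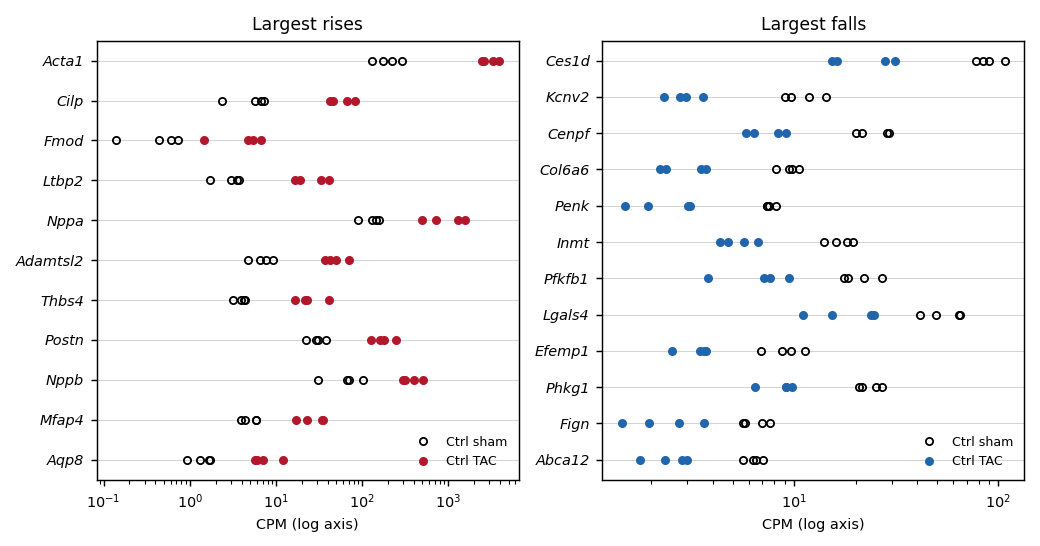
Dots give the CPM (log axis) of 11 genes with the largest rises (left) and 12 with the largest falls (right) in the 4 Ctrl sham (open) and 4 Ctrl TAC (filled) libraries. The groups do not overlap for any of these genes, which the naming rule required, and Acta1 runs from 129 to 287 CPM in sham and from 2448 to 3915 CPM in TAC hearts.

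The list of genes known to respond to cardiac load rose almost as a whole. Of its 17 tested members 16 were called higher, with a median log2 fold change of 1.27 beside 0.004 over all tested genes. This list was written for its known response to TAC, so its direction is no independent evidence. Its summed level was 4202 to 4936 CPM in sham and 13484 to 19113 CPM in TAC hearts. Ankrd1, a stretch-sensitive titin-binding repressor, was at 648, 823, 875 and 917 CPM in Ctrl sham 1 to 4 and 4066, 2619, 3165 and 4429 CPM in Ctrl TAC 1 to 4. Ankrd1 rose by 2.13 ± 0.142 log2 (SE, adjusted p = 1.34e-07). The actin-binding repeat protein gene Xirp2 was at 463, 421, 507 and 497 CPM in Ctrl sham 1 to 4 and 2101, 1532, 1177 and 1979 CPM in Ctrl TAC 1 to 4. Xirp2 rose by 1.85 ± 0.159 log2 (SE, adjusted p = 1.87e-06). All 4 TAC hearts were above all 4 sham hearts for both. Gdf15, a stress-induced circulating factor, was at 1.13, 1.41, 1.52 and 2.87 CPM in Ctrl sham 1 to 4 and 11.3, 4.12, 4.53 and 8.62 CPM in Ctrl TAC 1 to 4, where Ctrl TAC 2 and 3 were closest to the highest sham heart. Gdf15 rose by 2.06 ± 0.419 log2 (SE, adjusted p = 0.00327). Slow skeletal troponin I (Tnni1) was the member not called and was near the limit of detection (0.0418 to 0.237 CPM in sham and 0 to 0.473 CPM in TAC hearts).

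To show the sequence next to the starts of the load genes that moved together, the 250 bases upstream of 4 of them are given from RefSeq (GRCm38.p6), read 5′ to 3′ on the strand of the gene, with capitals for a CArG box (the serum response factor site), an M-CAT element (CATTCC, the TEAD site) or TATAAA on either strand.
Acta1, chr8:123894776-123895025, minus strand: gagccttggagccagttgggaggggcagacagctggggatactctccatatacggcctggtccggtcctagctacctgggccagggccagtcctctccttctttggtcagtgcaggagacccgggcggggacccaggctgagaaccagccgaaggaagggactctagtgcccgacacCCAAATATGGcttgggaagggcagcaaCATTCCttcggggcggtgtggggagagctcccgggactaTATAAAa
Nppa, chr4:148000472-148000721, plus strand: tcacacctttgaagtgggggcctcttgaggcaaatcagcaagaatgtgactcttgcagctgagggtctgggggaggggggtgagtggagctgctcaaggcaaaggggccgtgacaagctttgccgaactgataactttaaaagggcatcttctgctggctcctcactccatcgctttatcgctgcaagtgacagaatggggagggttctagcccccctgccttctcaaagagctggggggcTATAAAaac
Nppb, chr4:147985650-147985899, plus strand: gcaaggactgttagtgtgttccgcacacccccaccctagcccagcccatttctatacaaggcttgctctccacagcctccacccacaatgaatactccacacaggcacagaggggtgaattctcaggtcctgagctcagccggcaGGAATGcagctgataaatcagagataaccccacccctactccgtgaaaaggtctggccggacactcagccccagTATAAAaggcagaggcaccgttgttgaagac
Ankrd1, chr19:36119845-36120094, minus strand: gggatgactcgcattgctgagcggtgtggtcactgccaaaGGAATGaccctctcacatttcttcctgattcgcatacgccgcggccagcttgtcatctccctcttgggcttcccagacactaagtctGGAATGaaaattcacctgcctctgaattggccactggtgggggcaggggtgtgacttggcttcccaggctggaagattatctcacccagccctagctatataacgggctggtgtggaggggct
In the Acta1 window the CArG box began 73 bases, the M-CAT letters 46 bases and TATAAA 7 bases before the RefSeq start. Upstream refers to that start, which is not the GENCODE gene start for Acta1, Nppb and Ankrd1. The Ankrd1 window lies within the GENCODE span of the gene, and so does part of the Nppb window. CATTCC lay on the opposite strand in Nppb and at 2 places in Ankrd1, while the Nppa window held TATAAA alone of these letters. Over the 15558 windows of the 12202 tested genes that had one, 1.23% held a CArG box, 11.2% held CATTCC and 7.14% held TATAAA. Among the 308 windows of genes called higher by more than 1 log2 the shares were 2.27%, 14.0% and 12.7%, and among the 117 windows of genes called lower by more than 1 log2 they were 0%, 17.9% and 13.7%. These matches are letters in a window and were not tested as sites.

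Contractile genes moved in both directions. Of 34 tested sarcomere and Z-disc genes 17 rose and 8 fell, and the summed level of the list overlapped between groups (76479 to 85395 CPM in sham and 79551 to 84786 CPM in TAC hearts). The beta-myosin heavy chain Myh7, the slow isoform of the fetal ventricle, was at 1342, 1487, 1572 and 1388 CPM in Ctrl sham 1 to 4 and 1884, 3995, 3202 and 3931 CPM in Ctrl TAC 1 to 4. Ctrl TAC 1 lay closest to the sham hearts. Myh7 rose by 1.17 ± 0.207 log2 (SE, adjusted p = 0.00116). With the number series as a term the log2 fold change was 0.80 and the adjusted p 0.0656. The fast adult isoform Myh6 was at 27489, 22152, 25724 and 23063 CPM in Ctrl sham 1 to 4 and 20806, 21924, 18762 and 18692 CPM in Ctrl TAC 1 to 4. The groups came close, since Ctrl TAC 2 was just under Ctrl sham 2. Myh6 fell by 0.30 ± 0.0793 log2 (SE, adjusted p = 0.0126). Its adjusted p was 0.103 with the series term and 0.0517 without Ctrl sham 1. Mhrt, an antisense transcript of the myosin locus chosen here after its value was seen, was at 104, 81.1, 89.9 and 83.9 CPM in Ctrl sham 1 to 4 and 40.1, 32.6, 35.4 and 32.9 CPM in Ctrl TAC 1 to 4. Mhrt fell by 1.35 ± 0.102 log2 (SE, adjusted p = 2.23e-07). Its exons overlap Myh7 on the opposite strand. The cardiac myosin light chain kinase gene Mylk3 was at 561, 533, 538 and 544 CPM in Ctrl sham 1 to 4 and 366, 411, 409 and 431 CPM in Ctrl TAC 1 to 4. Mylk3 fell by 0.43 ± 0.0695 log2 (SE, adjusted p = 0.000248). Its relative Mylk4 was at 432, 306, 406 and 385 CPM in Ctrl sham 1 to 4 and 127, 218, 224 and 201 CPM in Ctrl TAC 1 to 4. Mylk4 fell by 0.99 ± 0.153 log2 (SE, adjusted p = 0.00034). Cardiac troponin I (Tnni3) fell by 0.43 log2 (2343 to 2821 CPM in sham and 1812 to 2158 CPM in TAC hearts). The count of sarcomere genes called lower was 5 without Ctrl TAC 1, 5 without Ctrl TAC 4 and 3 without Ctrl sham 1. With the series term 10 were called higher and 5 lower.

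Many genes that anchor and brace the contractile apparatus rose. Of 43 tested actin-binding and focal adhesion genes 27 were called higher with a median log2 fold change of 0.30, and the other 16 did not pass. Ankrd23, a titin-associated stretch sensor, was at 140.3, 251, 173 and 204 CPM in Ctrl sham 1 to 4 and 732, 521, 579 and 619.6 CPM in Ctrl TAC 1 to 4. Ankrd23 rose by 1.67 ± 0.172 log2 (SE, adjusted p = 1.24e-05). Its relative Ankrd2 rose from a low level (0.172 to 0.450 CPM in sham and 1.37 to 3.26 CPM in TAC hearts, log2 fold change 2.90). Among 29 intermediate filament, dystrophin complex and intercalated disc genes 10 rose and 4 fell. Desmin (Des), the intermediate filament that links Z-discs, was at 1351, 1290, 1369.6 and 1409 CPM in Ctrl sham 1 to 4 and 2249.9, 1954, 1783 and 2132 CPM in Ctrl TAC 1 to 4. Des rose by 0.58 ± 0.0622 log2 (SE, adjusted p = 3.6e-06). Vimentin (Vim), the intermediate filament of fibroblasts and endothelium, was at 148 to 188 CPM in sham and 231 to 257 CPM in TAC hearts (0.52 log2), and the dystrophin-associated syntrophin Sntb1 at 2.97 to 4.41 CPM in sham and 5.92 to 6.56 CPM in TAC hearts (0.68 log2). Of 21 tubulin and microtubule genes 6 rose (28.6% called beside 20.0% of all genes). Among them, Tuba1c (28 to 31.2 CPM in sham and 38.4 to 45.7 CPM in TAC hearts), Tuba1a (43.3 to 56.1 CPM in sham and 64 to 80.7 CPM in TAC hearts) and the microtubule-associated protein gene Map1b (8.44 to 12.2 CPM in sham and 13.3 to 16.3 CPM in TAC hearts) rose by 0.47 to 0.50 log2.

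Extracellular matrix genes rose broadly. Of 27 tested collagen genes 24 rose, 1 fell and 2 did not pass, with a median log2 fold change of 1.12. Their summed level was 915 to 1183 CPM in sham and 2304 to 2717 CPM in TAC hearts. Col8a1, a short-chain collagen of vessel walls, was at 19.1, 20.2, 25.4 and 18.4 CPM in Ctrl sham 1 to 4 and 93.9, 82.4, 91.1 and 133 CPM in Ctrl TAC 1 to 4. Col8a1 rose by 2.27 ± 0.134 log2 (SE, adjusted p = 4.72e-08). Col8a2, the other chain of type VIII, rose from a low level (0.125 to 0.293 CPM in sham and 1.11 to 2.07 CPM in TAC hearts, 2.71 log2), as did the fibril-associated Col12a1 (1.37 to 1.64 CPM in sham and 4.49 to 8.10 CPM in TAC hearts, 1.97 log2). Of the fibrillar collagens, named for their role after the values were seen, Col1a1 was at 36.3, 54.4, 56.7 and 47.8 CPM in Ctrl sham 1 to 4 and 143, 157, 142 and 178 CPM in Ctrl TAC 1 to 4. Col1a1 rose by 1.67 ± 0.109 log2 (SE, adjusted p = 5.5e-08). Col3a1 was at 70.3, 117, 119 and 93 CPM in Ctrl sham 1 to 4 and 275, 304, 346 and 354 CPM in Ctrl TAC 1 to 4. Col3a1 rose by 1.68 ± 0.134 log2 (SE, adjusted p = 6.43e-07). For both, every TAC heart was above every sham heart. The collagen that fell was Col6a6, a type VI chain, at 8.16, 9.42, 10.6 and 9.78 CPM in Ctrl sham 1 to 4 and 2.36, 3.51, 3.72 and 2.20 CPM in Ctrl TAC 1 to 4. Col6a6 fell by 1.68 ± 0.238 log2 (SE, adjusted p = 0.000119). The other called type VI chains rose.

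Of 53 matrix glycoprotein and elastic fibre genes 41 rose and 3 fell, with a median log2 fold change of 0.57. Fibronectin (Fn1), also named for its role, was at 38.6, 42.6, 50.6 and 48.8 CPM in Ctrl sham 1 to 4 and 75.1, 73, 74.2 and 82.8 CPM in Ctrl TAC 1 to 4. Fn1 rose by 0.76 ± 0.0729 log2 (SE, adjusted p = 1.16e-06). Microfibril protein Mfap4 was at 3.90 to 5.93 CPM in sham and 17.1 to 35.4 CPM in TAC hearts (2.46 log2). The 3 members that fell were Efemp1, Thbs2 and Ltbp1. Efemp1, a fibulin of the basement membrane, was at 6.85, 9.62, 11.3 and 8.74 CPM in Ctrl sham 1 to 4 and 3.45, 3.69, 3.60 and 2.52 CPM in Ctrl TAC 1 to 4. Efemp1 fell by 1.46 ± 0.190 log2 (SE, adjusted p = 4.1e-05). The thrombospondin Thbs2 was at 24.8, 28.6, 30.6 and 24.9 CPM in Ctrl sham 1 to 4 and 14.4, 13.7, 17.7 and 11.1 CPM in Ctrl TAC 1 to 4. Thbs2 fell by 0.94 ± 0.136 log2 (SE, adjusted p = 0.000129). Ltbp1, which stores latent TGF-beta, was at 53.9 to 58.5 CPM in sham and 36.1 to 44.5 CPM in TAC hearts (-0.44 log2). Thbs2 and Ltbp1 thus moved opposite to their relatives Thbs4 and Ltbp2. Of 12 small leucine-rich proteoglycans 5 rose, among them biglycan (Bgn), asporin (Aspn) and Fmod. Biglycan was at 119, 121, 149 and 129 CPM in Ctrl sham 1 to 4 and 344, 276, 315 and 421 CPM in Ctrl TAC 1 to 4. Bgn rose by 1.39 ± 0.101 log2 (SE, adjusted p = 1.34e-07). Asporin was at 22.4 to 28.2 CPM in sham and 34.1 to 50.5 CPM in TAC hearts (0.80 log2).

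Enzymes that mature and cut the matrix followed. Among 24 cross-linking, hydroxylation and assembly genes 13 rose and 1 fell. The lysyl oxidase-like Loxl2 was at 9.42 to 13.7 CPM in sham and 32.3 to 40.4 CPM in TAC hearts. Loxl2 rose by 1.65 ± 0.111 log2 (SE, adjusted p = 5.66e-08). The procollagen N-proteinase Adamts2 was at 13.5 to 17.7 CPM in sham and 34.8 to 45.6 CPM in TAC hearts (1.28 log2). The member that fell was the prolyl 3-hydroxylase family gene P3h4 (22.6 to 30.2 CPM in sham and 15.1 to 20 CPM in TAC hearts, -0.59 log2). Among 37 proteases and inhibitors 15 rose and 2 fell. Adamtsl2, a fibrillin-binding member of the ADAMTS-like family, was at 6.46, 4.80, 7.71 and 9.13 CPM in Ctrl sham 1 to 4 and 50.4, 42.1, 37.2 and 69.5 CPM in Ctrl TAC 1 to 4. Adamtsl2 rose by 2.83 ± 0.248 log2 (SE, adjusted p = 4e-06). The metalloproteinase inhibitor Timp1 was at 1.11, 1.55, 1.45 and 1.41 CPM in Ctrl sham 1 to 4 and 4.56, 6.69, 5.49 and 6.67 CPM in Ctrl TAC 1 to 4. Timp1 rose by 2.09 ± 0.231 log2 (SE, adjusted p = 8.56e-06). Adamts8 also rose (0.306 to 0.724 CPM in sham and 2.11 to 3.97 CPM in TAC hearts, 2.31 log2). The serine protease Htra1 (81.4 to 86.4 CPM in sham and 52.7 to 57.3 CPM in TAC hearts, -0.60 log2) and the membrane-type metalloproteinase Mmp15 (92.6 to 108 CPM in sham and 68.2 to 90.4 CPM in TAC hearts, -0.42 log2) were the members that fell. Of 21 integrin and integrin-related genes 8 rose. They were led by the integrin beta-like gene Itgbl1, which is not an integrin subunit (9.06 to 14.2 CPM in sham and 27.7 to 43.3 CPM in TAC hearts, 1.61 log2), the integrin subunit Itga9 (40.5 to 53.3 CPM in sham and 85.8 to 110.5 CPM in TAC hearts, 1.06 log2) and the collagen receptor subunit Itga11 (1.71 to 2.83 CPM in sham and 3.09 to 5.86 CPM in TAC hearts, 0.91 log2).

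**Figure D3:**
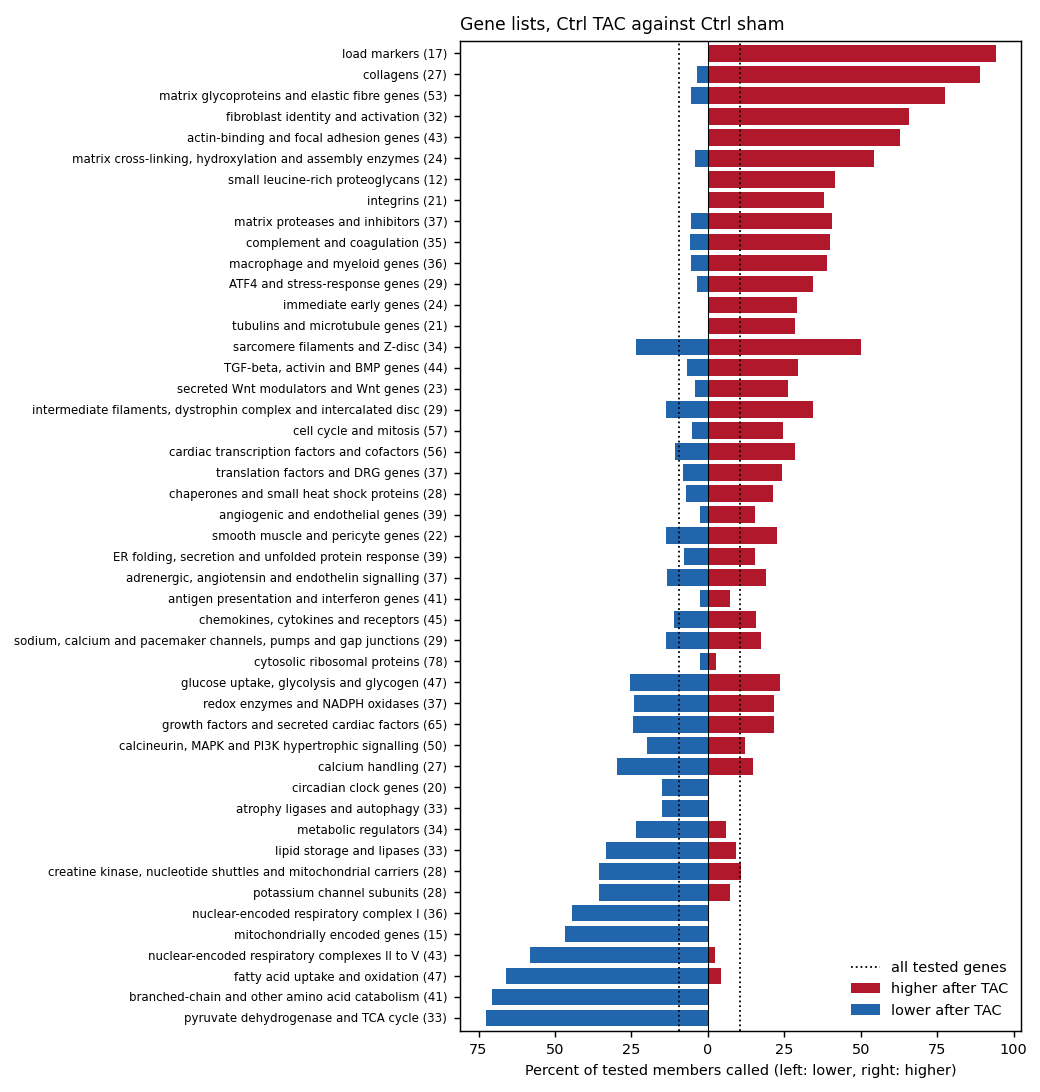
Bars give the percent of tested members of each of 47 gene lists (number tested in parentheses) called higher (red, right) or lower (blue, left) in Ctrl TAC against Ctrl sham; dotted lines mark the 10.4% and 9.60% of all tested genes. Load markers and matrix lists extend furthest to the right, fuel oxidation lists furthest to the left, and cytosolic ribosomal proteins stay inside both lines.

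Secreted signals of the TGF-beta and Wnt families rose in part. Of 44 TGF-beta, activin and BMP genes 13 rose and 3 fell (36.4% called beside 20.0% of all genes). Fstl3, an activin antagonist, was at 2.83, 2.70, 3.31 and 2.87 CPM in Ctrl sham 1 to 4 and 8.39, 9.49, 10.1 and 11.4 CPM in Ctrl TAC 1 to 4. Fstl3 rose by 1.75 ± 0.146 log2 (SE, adjusted p = 2.86e-07). The BMP ligand Gdf6 was at 0.988, 0.937, 1.03 and 0.997 CPM in Ctrl sham 1 to 4 and 3.26, 2.48, 2.48 and 4.33 CPM in Ctrl TAC 1 to 4. Gdf6 rose by 1.67 ± 0.257 log2 (SE, adjusted p = 0.000182). The co-receptor Tgfbr3 fell by 0.43 log2 (32.3 to 38.2 CPM in sham and 24.2 to 30.4 CPM in TAC hearts). Of 23 secreted Wnt modulators and Wnt genes 6 rose and 1 fell (30.4% called). The Wnt antagonist Frzb was at 2.65 to 3.94 CPM in sham and 7.25 to 13.2 CPM in TAC hearts. Frzb rose by 1.72 ± 0.172 log2 (SE, adjusted p = 2.95e-06). The antagonists Dkk3 (1.75 to 2.70 CPM in sham and 5.21 to 8.63 CPM in TAC hearts, 1.70 log2) and Sfrp2 (1.24 to 1.82 CPM in sham and 2.94 to 5.66 CPM in TAC hearts, 1.52 log2) rose as well. Growth factors split, with 14 of 65 higher and 16 lower, 46.2% called (9 and 10 with the series term). Dio2, the deiodinase that activates thyroid hormone, was at 0.696, 0.844, 1.40 and 0.919 CPM in Ctrl sham 1 to 4 and 6.28, 3.72, 3.34 and 5.85 CPM in Ctrl TAC 1 to 4. Dio2 rose by 2.32 ± 0.349 log2 (SE, adjusted p = 0.000282). The muscle growth factor Fgf6 was at 0.626 to 1.11 CPM in sham and 2.86 to 4.18 CPM in TAC hearts (2.06 log2). Proenkephalin (Penk), the precursor of opioid peptides, was at 7.50, 8.17, 7.40 and 7.35 CPM in Ctrl sham 1 to 4 and 1.92, 3.08, 3.03 and 1.49 CPM in Ctrl TAC 1 to 4, with no TAC heart above 3.08 CPM and no sham heart under 7.35 CPM. Penk fell by 1.68 ± 0.216 log2 (SE, adjusted p = 4.02e-05).

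Markers of the cell types in the wall did not move alike. Of 8 fibroblast markers 4 rose, and their summed level was 569 to 642 CPM in sham and 814 to 1140 CPM in TAC hearts. The markers of resting fibroblasts in that list were closer to 0, with Dpt at 50.5 to 57.3 CPM in sham and 43.6 to 62.9 CPM in TAC hearts, Pdgfra at 24.5 to 32.1 CPM in sham and 28.8 to 40.2 CPM in TAC hearts and Tcf21 at 3.89 to 5.26 CPM in sham and 5.19 to 7.29 CPM in TAC hearts, none of which was called. Pdgfra was called with the series term (adjusted p 0.0317), and Tcf21 likewise (0.0107). The smooth muscle actin gene Acta2, a marker of myofibroblasts, was also not called (40.8, 52.6, 76.4 and 67.4 CPM in Ctrl sham 1 to 4 and 43.1, 49.6, 47.5 and 39.5 CPM in Ctrl TAC 1 to 4, adjusted p 0.0788). It was called lower without Ctrl sham 1 and in DESeq2. In the longer list of fibroblast identity and activation genes 21 of 32 rose, and this list shares Cilp, Thbs4, Postn and Mfap4 with the matrix lists. Of 8 macrophage markers 5 rose, with a summed level of 132 to 172 CPM in sham and 188 to 213 CPM in TAC hearts. None of the 8 endothelial markers was called in edgeR (1 at an unadjusted p under 0.05 and 1 called in DESeq2), and their summed level overlapped between groups (652 to 726 and 642 to 821 CPM). Mural cell markers overlapped too (660 to 712 and 649 to 723 CPM). Of 10 cardiomyocyte markers 5 fell and 1 rose, with a summed level of 53742 to 61811 CPM in sham and 46137 to 50026 CPM in TAC hearts.

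Macrophage genes rose in part. Of 36 macrophage and myeloid genes 14 rose and 2 fell, and the count called higher was 7 to 9 without Ctrl TAC 3 or any of Ctrl sham 1, 2 and 4 and 8 with the series term. Trem2, a lipid-sensing receptor of macrophages, was at 1.52, 1.89, 2.16 and 1.23 CPM in Ctrl sham 1 to 4 and 3.36, 2.55, 3.62 and 3.08 CPM in Ctrl TAC 1 to 4. Trem2 rose by 0.89 ± 0.157 log2 (SE, adjusted p = 0.000554). Lpl, listed there but made in quantity by muscle, fell by 0.27 log2 (4598 to 5535 CPM in sham and 3975 to 4360.2 CPM in TAC hearts). Markers of T and NK cells, B cells and neutrophils summed to at most 11.7 CPM in any Ctrl library, and none of their 15 tested members was called in edgeR (1 at an unadjusted p under 0.05 and none in DESeq2). Among 45 chemokines, cytokines and receptors 7 rose and 5 fell, a share called of 26.7% beside 20.0% of all genes. The eosinophil chemokine Ccl11 was at 2.42, 3.08, 2.74 and 3.97 CPM in Ctrl sham 1 to 4 and 0.334, 0.284, 0.684 and 0.292 CPM in Ctrl TAC 1 to 4. Ccl11 fell by 2.93 ± 0.257 log2 (SE, adjusted p = 4.59e-07). Il15, a cytokine that muscle also makes, was at 32.7, 25.6, 26.8 and 29.6 CPM in Ctrl sham 1 to 4 and 12.9, 14.1, 16.9 and 15.2 CPM in Ctrl TAC 1 to 4. Il15 fell by 0.96 ± 0.0993 log2 (SE, adjusted p = 2.95e-06). For both, every TAC heart was under every sham heart. Tnfrsf12a, the receptor of TWEAK, was at 14.6, 18.5, 21.8 and 23.9 CPM in Ctrl sham 1 to 4 and 117, 61, 54.7 and 65 CPM in Ctrl TAC 1 to 4. Tnfrsf12a rose by 1.92 ± 0.345 log2 (SE, adjusted p = 0.00175). Ctrl TAC 1 lay far above the other 3 TAC hearts. The membrane-bound chemokine Cx3cl1 rose (4.62 to 5.75 CPM in sham and 7.83 to 10.3 CPM in TAC hearts, 0.72 log2). Leaving out Ctrl sham 1 left 4 of these genes called higher, and leaving out Ctrl TAC 2 or Ctrl sham 3 left 3 called lower. Of 35 complement and coagulation genes 14 rose and 2 fell. The lectin pathway protease Masp1 was at 8.41 to 10.4 CPM in sham and 18.9 to 22.2 CPM in TAC hearts. Masp1 rose by 1.17 ± 0.0980 log2 (SE, adjusted p = 2.89e-07). C4b (12.6 to 18.5 CPM in sham and 24.2 to 30.6 CPM in TAC hearts, 0.91 log2) and the phospholipid-binding Anxa1 (15.9 to 19.2 CPM in sham and 26.6 to 31.7 CPM in TAC hearts, 0.75 log2) rose too. The falls were the inhibitors Tfpi (68.2 to 75.5 CPM in sham and 36.8 to 49.9 CPM in TAC hearts, -0.76 log2) and Cd59a (79.6 to 90.7 CPM in sham and 66.6 to 74 CPM in TAC hearts, -0.30 log2). Of 41 antigen presentation and interferon genes 3 rose, including Irf7 (6.47 to 7.50 CPM in sham and 8.45 to 11.9 CPM in TAC hearts, 0.55 log2), and 1 fell, which is 9.76% beside 20.0% of all genes.

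Cell cycle genes had a median log2 fold change of 0.36, with 14 of 57 called higher and 3 lower (29.8% called beside 20.0% of all genes). The mitotic cyclin Ccnb2 was at 0.599, 0.50, 0.811 and 0.763 CPM in Ctrl sham 1 to 4 and 1.48, 1.45, 1.28 and 1.56 CPM in Ctrl TAC 1 to 4. Ccnb2 rose by 1.11 ± 0.248 log2 (SE, adjusted p = 0.00361). The proliferation marker Mki67 was not called (4.51, 5.75, 7.91 and 5.79 CPM in Ctrl sham 1 to 4 and 8.24, 7.01, 7.77 and 10.1 CPM in Ctrl TAC 1 to 4, adjusted p 0.234). The count called higher was 4 without Ctrl TAC 4, 6 without Ctrl sham 1, 6 without Ctrl sham 2 and 3 with the series term, which left 1 called lower. Cenpf, a kinetochore protein that cardiomyocytes also carry at the nuclear envelope, moved the other way, at 29, 28.5, 21.6 and 20 CPM in Ctrl sham 1 to 4 and 5.82, 9.16, 8.29 and 6.34 CPM in Ctrl TAC 1 to 4. Cenpf fell by 1.74 ± 0.223 log2 (SE, adjusted p = 8.23e-05). Of 39 angiogenic and endothelial genes 6 rose, such as podoplanin (Pdpn, 2.58 to 3.14 CPM in sham and 4.05 to 5.6 CPM in TAC hearts, 0.73 log2) and Plvap of endothelial fenestrae (4.93 to 6.26 CPM in sham and 6.95 to 8.84 CPM in TAC hearts, 0.51 log2), 1 fell, and without Ctrl TAC 1 the count called higher was 3. The share called (17.9%) was near the 20.0% of all genes. Of 22 smooth muscle and pericyte genes 5 rose and 3 fell (36.4% called). Abcc9, the sulfonylurea receptor of potassium channels, was at 397 to 434 CPM in sham and 243 to 293 CPM in TAC hearts. Abcc9 fell by 0.64 ± 0.0707 log2 (SE, adjusted p = 4.94e-06). Smoothelin (Smtn) also fell (146 to 163 CPM in sham and 104 to 123 CPM in TAC hearts, -0.40 log2). Without Ctrl sham 1 or Ctrl sham 4 the count called higher was 2, and with the series term 3.

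Genes of fuel oxidation were called lower at many steps, mostly by small amounts. Of 47 tested genes for fatty acid uptake and oxidation 31 fell and 2 rose, with a median log2 fold change of -0.35, and their summed level was 18493 to 21415 CPM in sham and 14720 to 16635 CPM in TAC hearts. Ech1, an auxiliary enzyme for unsaturated fatty acids, was at 1065, 959, 888 and 912 CPM in Ctrl sham 1 to 4 and 477, 579, 625 and 511 CPM in Ctrl TAC 1 to 4. Ech1 fell by 0.80 ± 0.0969 log2 (SE, adjusted p = 1.73e-05). Fatty acid transport protein 1 (Slc27a1) was at 189, 181, 171 and 152 CPM in Ctrl sham 1 to 4 and 65.3, 118, 112 and 91.2 CPM in Ctrl TAC 1 to 4, where Ctrl TAC 1 was lowest. Slc27a1 fell by 0.84 ± 0.186 log2 (SE, adjusted p = 0.00534). The acyl-CoA thioesterase Acot1 was at 10.5 to 14.7 CPM in sham and 4.02 to 7.24 CPM in TAC hearts (-1.30 log2). Of 33 lipid storage and lipase genes 11 fell and 3 rose, and the count called lower was 6 without Ctrl TAC 4 or Ctrl sham 1. Ces1d, a carboxylesterase that hydrolyses stored triglyceride, had the largest of the 12 falls named by size, at 108, 77.3, 89.9 and 83.7 CPM in Ctrl sham 1 to 4 and 16.3, 27.7, 31.3 and 15.3 CPM in Ctrl TAC 1 to 4. Ces1d fell by 1.99 ± 0.259 log2 (SE, adjusted p = 0.000133). The desaturase Scd1 (7.28 to 9.86 CPM in sham and 10.9 to 19.3 CPM in TAC hearts, 0.70 log2) and the carboxylesterase Ces2e (1.25 to 1.96 CPM in sham and 2.15 to 2.65 CPM in TAC hearts, 0.60 log2) rose.

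Amino acid and pyruvate oxidation went the same way. Of 41 genes of branched-chain and other amino acid catabolism 29 fell and the other 12 did not pass (median log2 fold change -0.26). Ppm1k, the phosphatase that activates branched-chain ketoacid oxidation, was at 94.4, 95.9, 85.6 and 79.7 CPM in Ctrl sham 1 to 4 and 41.8, 59.6, 53.3 and 45.5 CPM in Ctrl TAC 1 to 4. Ppm1k fell by 0.83 ± 0.107 log2 (SE, adjusted p = 4.1e-05). The alanine aminotransferase Gpt was at 29.1 to 36.3 CPM in sham and 17.6 to 24.3 CPM in TAC hearts (-0.66 log2). Of 33 pyruvate dehydrogenase and TCA cycle genes 24 fell and 9 did not pass (median -0.25). Pdp2, the phosphatase that activates pyruvate dehydrogenase, was at 36.7, 39.9, 32.4 and 26.9 CPM in Ctrl sham 1 to 4 and 18.5, 20.6, 20.1 and 15.4 CPM in Ctrl TAC 1 to 4. Pdp2 fell by 0.87 ± 0.112 log2 (SE, adjusted p = 4.1e-05). The dehydrogenase Dhtkd1, counted in this list though it acts in lysine breakdown, was at 5.24 to 8.01 CPM in sham and 4.14 to 4.89 CPM in TAC hearts (-0.55 log2). Succinate dehydrogenase, which belongs to both the TCA cycle and the respiratory chain, fell in its subunits Sdha and Sdhc. Sdha was at 1608, 1456, 1419 and 1494 CPM in Ctrl sham 1 to 4 and 1074, 1174, 1132 and 1011 CPM in Ctrl TAC 1 to 4. Sdha fell by 0.44 ± 0.0539 log2 (SE, adjusted p = 1.45e-05). Sdhc was at 364 to 427 CPM in sham and 238 to 311 CPM in TAC hearts (-0.50 log2).

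Respiratory chain genes were also called lower, in numbers that depended on single libraries. Of 36 nuclear genes of complex I 16 fell, with a median log2 fold change of -0.16, and the count was 5 without Ctrl TAC 4, 4 without Ctrl sham 1, 9 without Ctrl sham 4 and 3 with the series term. Ndufs1, the largest core subunit, was at 822, 674, 679.9 and 703 CPM in Ctrl sham 1 to 4 and 549, 548, 590.1 and 541 CPM in Ctrl TAC 1 to 4. Ndufs1 fell by 0.37 ± 0.0584 log2 (SE, adjusted p = 0.0002). Ndufv1, the flavin-binding core subunit, was at 549 to 621 CPM in sham and 453 to 550 CPM in TAC hearts (-0.27 log2). Of 43 nuclear genes of complexes II to V 25 fell and 1 rose (median -0.19), and 16 fell without Ctrl TAC 4 or Ctrl sham 1 and 11 with the series term. The heart isoform Cox7a1 was at 408 to 476 CPM in sham and 294 to 381 CPM in TAC hearts (-0.39 log2), whereas Cox6a1, the isoform of non-muscle tissue, was at 56.3 to 58.1 CPM in sham and 63.5 to 75 CPM in TAC hearts. Cox6a1 rose by 0.25 ± 0.0595 log2 (SE, adjusted p = 0.00576). Of 15 mitochondrially encoded genes 7 fell and 8 did not pass, with all 15 log2 fold changes between -0.58 and -0.14. The cytochrome oxidase subunit mt-Co1 was at 97899.7, 89209.6, 86419 and 91358 CPM in Ctrl sham 1 to 4 and 73096, 64252, 82892 and 71598 CPM in Ctrl TAC 1 to 4. mt-Co1 fell by 0.32 ± 0.0683 log2 (SE, adjusted p = 0.00248). Its TAC values were all under the lowest sham value, and Ctrl TAC 3 was nearest to it. The complex I subunits mt-Nd5 and mt-Nd6 overlap on opposite strands and were at 21256 to 25592 CPM in sham and 17338 to 20788 CPM in TAC hearts (-0.32 log2) and 6028 to 7739.8 CPM in sham and 4599 to 6442 CPM in TAC hearts (-0.39 log2). The large ribosomal RNA mt-Rnr2, caught despite poly(A) selection, was at 6175 to 10623 CPM in sham and 4532 to 6128 CPM in TAC hearts (-0.58 log2). Without Ctrl TAC 3, 14 of the 15 genes were called lower, and in DESeq2 12 were. Mitochondrial genes took 26.8% to 28.8% of counts in sham and 21.9% to 27.0% in TAC hearts.

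Genes of glucose use moved in both directions. Of 47 genes of glucose uptake, glycolysis and glycogen 11 rose and 12 fell (median log2 fold change 0.05), and 7 rose without Ctrl TAC 1, Ctrl TAC 4 or Ctrl sham 2. The platelet isoform of phosphofructokinase, Pfkp, was at 40.1, 38.9, 41.6 and 41.6 CPM in Ctrl sham 1 to 4 and 136, 74.9, 72.8 and 93.3 CPM in Ctrl TAC 1 to 4. Pfkp rose by 1.22 ± 0.157 log2 (SE, adjusted p = 7.93e-05). Ctrl TAC 1 was highest. The glycogen-targeting subunit Ppp1r3c (76.3 to 128 CPM in sham and 156 to 230.2 CPM in TAC hearts, 0.81 log2) and the lactate transporter Slc16a3 (1.52 to 2.01 CPM in sham and 2.36 to 3.61 CPM in TAC hearts, 0.71 log2) also rose. Pfkfb1, which makes and removes the activator of phosphofructokinase, was at 26.8, 17.5, 22.1 and 18.4 CPM in Ctrl sham 1 to 4 and 3.80, 7.66, 9.49 and 7.09 CPM in Ctrl TAC 1 to 4. Pfkfb1 fell by 1.60 ± 0.247 log2 (SE, adjusted p = 0.000393). Phkg1, the muscle catalytic subunit of phosphorylase kinase, was at 26.9, 21.5, 20.8 and 25.2 CPM in Ctrl sham 1 to 4 and 9.12, 9.10, 9.76 and 6.46 CPM in Ctrl TAC 1 to 4. Phkg1 fell by 1.46 ± 0.152 log2 (SE, adjusted p = 6.13e-06). Of 34 metabolic regulators 8 fell and 2 rose (29.4% called beside 20.0% of all genes). Nampt, the rate-limiting enzyme of NAD salvage, was at 289, 229, 245 and 259 CPM in Ctrl sham 1 to 4 and 128, 159.9, 166 and 137 CPM in Ctrl TAC 1 to 4. Nampt fell by 0.79 ± 0.119 log2 (SE, adjusted p = 0.00021). The beta subunits of AMP-activated kinase moved in opposite directions, with Prkab1 at 21.9 to 30.8 CPM in sham and 14.5 to 18.3 CPM in TAC hearts (-0.55 log2) and Prkab2 at 53.2 to 58.8 CPM in sham and 67.7 to 79.2 CPM in TAC hearts (0.41 log2). The count of regulators called lower was 5 without Ctrl sham 1. Of 28 creatine kinase, nucleotide shuttle and carrier genes 10 fell, such as the coenzyme A carrier Slc25a42 (57.7 to 73.3 CPM in sham and 32.4 to 52.3 CPM in TAC hearts, -0.63 log2), and 3 rose, such as the brain creatine kinase Ckb (30.7 to 34.9 CPM in sham and 37.2 to 41 CPM in TAC hearts, 0.29 log2).

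**Figure D4:**
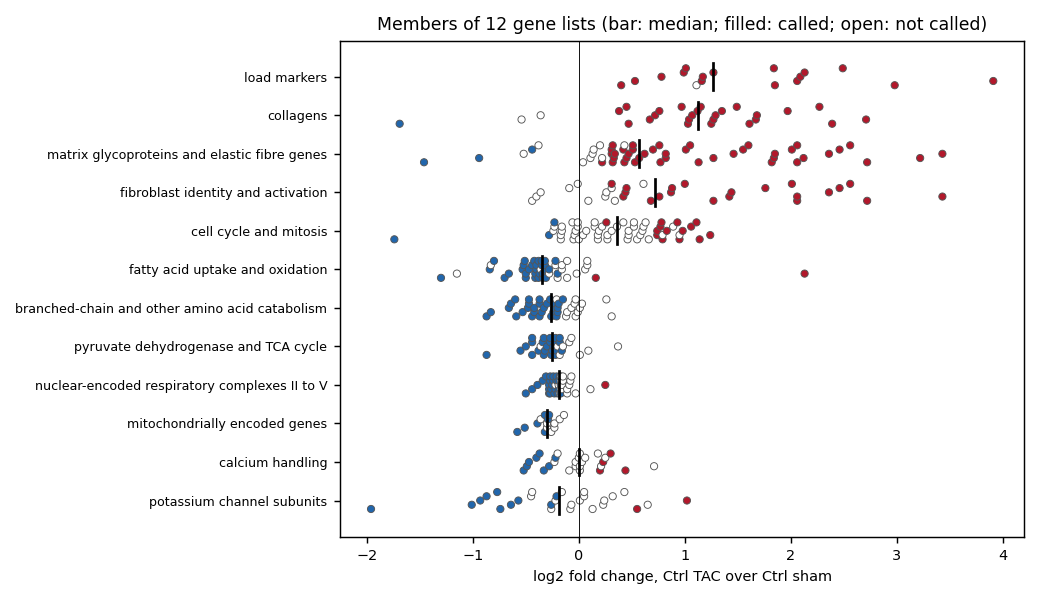
Each circle is a tested member of 1 of 12 gene lists placed by its log2 fold change in Ctrl TAC over Ctrl sham, filled where called and open where not, with a bar at the median of the list. The medians run from 1.27 for load markers to -0.35 for fatty acid uptake and oxidation, and Col6a6 and Cenpf sit far left of the other members of their lists.

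Calcium handling genes moved in both directions. Of 27 tested 8 fell and 4 rose (44.4% called beside 20.0% of all genes), with a median log2 fold change of 0.00. With the series term 5 fell and 3 rose. The calcium pump of the sarcoplasmic reticulum, Atp2a2, was at 16392, 14101, 14871 and 14904 CPM in Ctrl sham 1 to 4 and 10398, 11216, 10415 and 9857 CPM in Ctrl TAC 1 to 4. Atp2a2 fell by 0.52 ± 0.0560 log2 (SE, adjusted p = 3.56e-06). Its inhibitor phospholamban (Pln) was at 5822, 5215, 4845 and 5052 CPM in Ctrl sham 1 to 4 and 3719.7, 3299, 4338 and 3802 CPM in Ctrl TAC 1 to 4. Pln fell by 0.47 ± 0.0724 log2 (SE, adjusted p = 0.00017). The luminal calcium-binding protein Hrc was at 877 to 1024 CPM in sham and 596 to 726 CPM in TAC hearts (-0.49 log2). The calcium store protein calsequestrin 2 (Casq2) rose, at 786, 715, 786 and 728 CPM in Ctrl sham 1 to 4 and 1034, 1005, 1005 and 1058 CPM in Ctrl TAC 1 to 4. Casq2 rose by 0.44 ± 0.0602 log2 (SE, adjusted p = 4.64e-05). Asph, the junctin locus, rose as well (168 to 175 CPM in sham and 189 to 225 CPM in TAC hearts, 0.23 log2). Of 28 potassium channel subunits 10 fell and 2 rose (42.9% called). Kcnv2, a silent subunit that modifies Kv2 channels, was at 14.4, 9.01, 9.68 and 11.8 CPM in Ctrl sham 1 to 4 and 2.97, 2.75, 3.57 and 2.31 CPM in Ctrl TAC 1 to 4. Kcnv2 fell by 1.96 ± 0.192 log2 (SE, adjusted p = 2.65e-06). Kcnj3, a subunit of the acetylcholine-activated channel, was at 100.1, 78.9, 87.1 and 81.8 CPM in Ctrl sham 1 to 4 and 31.2, 50.5, 56.5 and 44 CPM in Ctrl TAC 1 to 4. Kcnj3 fell by 0.93 ± 0.170 log2 (SE, adjusted p = 0.00139). The voltage-gated subunit Kcna2 was at 2.13 to 3.25 CPM in sham and 0.836 to 2.14 CPM in TAC hearts (-1.01 log2). Kcne1, the small subunit of the slow delayed rectifier, rose (0.930 to 1.29 CPM in sham and 1.46 to 2.53 CPM in TAC hearts, 1.02 log2). Of 29 sodium, calcium and pacemaker channel, pump and gap junction genes 5 rose and 4 fell (31.0% called). The count called higher was 3 without any one of Ctrl TAC 1, 2 and 4 and Ctrl sham 2 and 3. With the series term 2 rose and 2 fell. The calcium channel subunit Cacnb1 rose (4.79 to 6.30 CPM in sham and 7.0 to 9.25 CPM in TAC hearts, 0.64 log2). The sodium channel Scn10a (2.02 to 2.39 CPM in sham and 0.627 to 1.40 CPM in TAC hearts, -1.28 log2) and the channel modulator Fgf13 (54.6 to 59.5 CPM in sham and 30.4 to 40.1 CPM in TAC hearts, -0.62 log2) fell.

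Hormone and growth signalling genes showed no common direction. Of 37 adrenergic, angiotensin and endothelin genes 7 rose and 5 fell (32.4% called beside 20.0% of all genes). The endothelin gene Edn3 was at 5.07, 3.11, 6.98 and 3.89 CPM in Ctrl sham 1 to 4 and 27, 27.3, 16.2 and 18.7 CPM in Ctrl TAC 1 to 4. Edn3 rose by 2.23 ± 0.289 log2 (SE, adjusted p = 0.000106). Angiotensin-converting enzyme (Ace) was at 53.4, 53.7, 76 and 68.5 CPM in Ctrl sham 1 to 4 and 107, 112, 100.3 and 145 CPM in Ctrl TAC 1 to 4. Ace rose by 0.88 ± 0.135 log2 (SE, adjusted p = 0.000256). The adenylyl cyclase Adcy7 rose (9.70 to 12.5 CPM in sham and 21.9 to 33.6 CPM in TAC hearts, 1.26 log2). Of 50 calcineurin, MAPK and PI3K genes 6 rose and 10 fell (32.0% called), and 6 fell without Ctrl sham 1. Protein kinase C isoforms parted, with Prkcd at 10.2 to 13.6 CPM in sham and 15.3 to 20 CPM in TAC hearts (0.51 log2) and Prkce at 39.8 to 42.2 CPM in sham and 28.1 to 36.5 CPM in TAC hearts (-0.39 log2). The kinase Akt2 fell (135 to 148 CPM in sham and 99.1 to 116 CPM in TAC hearts, -0.38 log2) and the atypical phosphatase Dusp27 rose (30.1 to 37.4 CPM in sham and 43.1 to 53 CPM in TAC hearts, 0.54 log2). Of 56 cardiac transcription factors and cofactors 16 rose and 6 fell (39.3% called). Meox1, a homeobox factor of activated fibroblasts, was at 4.80, 7.0, 7.61 and 6.92 CPM in Ctrl sham 1 to 4 and 20.3, 13.6, 13.1 and 24.2 CPM in Ctrl TAC 1 to 4. Meox1 rose by 1.44 ± 0.228 log2 (SE, adjusted p = 0.000457). Sox9, a cartilage and fibroblast factor, was at 0.978 to 1.23 CPM in sham and 2.08 to 3.82 CPM in TAC hearts (1.25 log2), and the TEAD cofactor Vgll2 rose from a low level (0.125 to 0.321 CPM in sham and 0.487 to 1.52 CPM in TAC hearts, 1.87 log2). Tbx5, a factor of early heart formation, was at 21, 21.4, 18.5 and 17 CPM in Ctrl sham 1 to 4 and 13.9, 12.7, 11.1 and 10.1 CPM in Ctrl TAC 1 to 4. Tbx5 fell by 0.70 ± 0.104 log2 (SE, adjusted p = 9.92e-05). The homeodomain-only protein Hopx was at 190.1 to 213 CPM in sham and 109 to 166 CPM in TAC hearts (-0.56 log2).

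Few genes of the cytosolic ribosome were called. Of 78 cytosolic ribosomal proteins 2 rose and 2 fell, a share of 5.13% beside 20.0% of all genes. Rpl3 was at 108, 126, 126 and 129 CPM in Ctrl sham 1 to 4 and 152, 169, 171 and 184 CPM in Ctrl TAC 1 to 4. Rpl3 rose by 0.47 ± 0.0676 log2 (SE, adjusted p = 8.37e-05). Its muscle-specific paralogue Rpl3l, which takes its place in the ribosome, was at 219.9, 187, 188 and 198 CPM in Ctrl sham 1 to 4 and 135, 136, 139 and 110.2 CPM in Ctrl TAC 1 to 4. Rpl3l fell by 0.61 ± 0.0798 log2 (SE, adjusted p = 3.38e-05). The ribosomal protein-like Rps27l also rose (31.3 to 34.4 CPM in sham and 34.1 to 43.7 CPM in TAC hearts, 0.31 log2). Reads shared between Rpl3 and Rpl3l could have been divided between them by the counting. Of 37 translation factor and DRG genes 9 rose and 3 fell (32.4% called). Eef1g (179 to 190.1 CPM in sham and 220.1 to 246 CPM in TAC hearts, 0.33 log2) and the helicase Eif4a1 (130.1 to 137 CPM in sham and 147 to 174 CPM in TAC hearts, 0.26 log2) were higher. The repressor Eif4ebp2 was lower (84.3 to 97.7 CPM in sham and 68.2 to 79.9 CPM in TAC hearts, -0.31 log2). The count called higher was 4 or 5 without Ctrl TAC 1, Ctrl TAC 4, Ctrl sham 1 or Ctrl sham 2 and 5 with the series term. Of 39 endoplasmic reticulum genes 6 rose and 3 fell, a share called of 23.1%, near the 20.0% of all genes. The rises included the retrieval receptor Kdelr3 (1.93 to 2.91 CPM in sham and 3.68 to 6.36 CPM in TAC hearts, 1.08 log2) and the disulfide isomerase Creld1 (30.9 to 34.8 CPM in sham and 35.2 to 41.3 CPM in TAC hearts, 0.26 log2). The falls included calnexin (Canx, 220.4 to 245 CPM in sham and 194 to 208 CPM in TAC hearts, -0.23 log2). In this list 3 rose without Ctrl TAC 4 or with the series term. Of 29 ATF4 and stress-response genes 10 rose and 1 fell (37.9% called). Pycr1, an enzyme of proline synthesis, was at 0.348, 0.672, 0.558 and 0.391 CPM in Ctrl sham 1 to 4 and 1.72, 1.78, 1.54 and 1.68 CPM in Ctrl TAC 1 to 4. Pycr1 rose by 1.77 ± 0.195 log2 (SE, adjusted p = 4.94e-06). The stress factor Nupr1 was at 2.28 to 2.59 CPM in sham and 3.23 to 8.03 CPM in TAC hearts (1.19 log2).

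Chaperone genes moved in both directions. Of 28 tested 6 rose and 2 fell, a share called of 28.6% beside 20.0% of all genes. The median log2 fold change was 0.02, and 3 rose and none fell with the series term. The median ran from -0.05 to 0.30 over the alternatives. The summed level of the list was 8440, 7791, 8397 and 12119.6 CPM in Ctrl sham 1 to 4 and 10206 to 10634 CPM in TAC hearts. Ctrl sham 4 was thus above all TAC hearts and the other sham hearts were below them. The rises named were the small heat shock proteins Hspb6, Hspb7 and Hspb8. Hspb6 was at 566, 516, 563 and 527 CPM in Ctrl sham 1 to 4 and 927, 926, 893 and 921 CPM in Ctrl TAC 1 to 4. Hspb6 rose by 0.76 ± 0.0535 log2 (SE, adjusted p = 5.5e-08). Hspb7 was at 1767, 1646, 1782 and 1709 CPM in Ctrl sham 1 to 4 and 2507, 2722, 2661 and 2429.7 CPM in Ctrl TAC 1 to 4. Hspb7 rose by 0.58 ± 0.0618 log2 (SE, adjusted p = 3.54e-06). Hspb8 was at 274 to 315 CPM in sham and 376 to 446 CPM in TAC hearts (0.53 log2). The inducible Hspa1a and Hspa1b were not called (adjusted p 0.254 and 0.2). Ctrl sham 4 had 346 CPM of Hspa1a and 437 CPM of Hspa1b, the other sham hearts 4.30 to 6.98 and 4.26 to 8.11 CPM, and TAC hearts 8.52 to 21.7 and 6.85 to 18.3 CPM. Without Ctrl sham 4 the log2 fold changes turned from -2.71 and -3.27 to 1.38 and 1.06 (adjusted p 0.477 and 0.628). Redox genes split, with 8 of 37 higher and 9 lower (45.9% called). The count called higher was 4 or 5 without Ctrl TAC 3, Ctrl TAC 4, Ctrl sham 1 or Ctrl sham 2. With the series term 5 were higher and 5 lower. The NADPH oxidase Nox4 was at 0.863, 0.984, 0.997 and 0.860 CPM in Ctrl sham 1 to 4 and 3.85, 1.75, 2.54 and 4.41 CPM in Ctrl TAC 1 to 4. Nox4 rose by 1.76 ± 0.230 log2 (SE, adjusted p = 3.44e-05). The secreted glutathione peroxidase Gpx3 was at 96.2 to 115 CPM in sham and 114 to 201 CPM in TAC hearts (0.57 log2). Monoamine oxidase B (Maob) was at 61.8, 47, 54.5 and 50.7 CPM in Ctrl sham 1 to 4 and 29.8, 29.3, 32.6 and 28.5 CPM in Ctrl TAC 1 to 4. Maob fell by 0.83 ± 0.0847 log2 (SE, adjusted p = 2.34e-06). The glutathione transferases Gstm1 (127 to 140.2 CPM in sham and 68.6 to 91.5 CPM in TAC hearts, -0.74 log2) and Gstk1 (47.4 to 54.7 CPM in sham and 26.2 to 34.1 CPM in TAC hearts, -0.68 log2) fell too. Of 33 atrophy ligase and autophagy genes 5 fell, a share of 15.2% beside 20.0% of all genes called, and with the series term 3 fell and 3 rose. The falls included the muscle ubiquitin ligase adaptors Asb15 (62.8 to 78 CPM in sham and 36.6 to 47.3 CPM in TAC hearts, -0.83 log2) and Asb14 (70.6 to 90.1 CPM in sham and 45.7 to 54.3 CPM in TAC hearts, -0.72 log2). The mitophagy kinase Pink1 was at 569 to 671 CPM in sham and 376 to 451 CPM in TAC hearts. Pink1 fell by 0.64 ± 0.0674 log2 (SE, adjusted p = 3.04e-06). Of 24 immediate early genes 7 rose (29.2% called), and 4 did so without Ctrl TAC 2, Ctrl TAC 4 or Ctrl sham 3 or with the series term. They included the zinc finger factors Egr2 (0.0507 to 0.375 CPM in sham and 0.528 to 1.62 CPM in TAC hearts, 2.28 log2) and Egr3 (0.567 to 1.39 CPM in sham and 2.57 to 4.29 CPM in TAC hearts, 1.97 log2). The matricellular Ccn1 was at 32.3 to 41.6 CPM in sham and 60.9 to 66.7 CPM in TAC hearts. Ccn1 rose by 0.77 ± 0.0626 log2 (SE, adjusted p = 2.27e-07). Of 20 clock genes 3 fell, a smaller share than the 20.0% of all genes called, among them the output factor Tef (211 to 235 CPM in sham and 146 to 198 CPM in TAC hearts, -0.34 log2).

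Several of the largest falls belonged to no common function. Inmt, an indole methyltransferase, was at 14, 16, 18.1 and 19.5 CPM in Ctrl sham 1 to 4 and 6.69, 4.33, 5.69 and 4.72 CPM in Ctrl TAC 1 to 4. Inmt fell by 1.66 ± 0.275 log2 (SE, adjusted p = 0.000707). Galectin 4 (Lgals4) was at 64.1, 64.9, 49.4 and 41.2 CPM in Ctrl sham 1 to 4 and 11, 23.7, 24.6 and 15.3 CPM in Ctrl TAC 1 to 4. Lgals4 fell by 1.56 ± 0.275 log2 (SE, adjusted p = 0.00138). The microtubule-severing fidgetin (Fign) was at 5.63 to 7.59 CPM in sham and 1.43 to 3.61 CPM in TAC hearts (-1.43 log2). The lipid transporter Abca12 was at 5.63 to 7.06 CPM in sham and 1.76 to 3.0 CPM in TAC hearts (-1.36 log2), and the water channel Aqp8, one of the largest rises, was at 0.919 to 1.72 CPM in sham and 5.73 to 12.2 CPM in TAC hearts. Aqp8 rose by 2.46 ± 0.323 log2 (SE, adjusted p = 8.69e-05).

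Among long noncoding genes more were called lower than higher. Of 2237 tested, 256 were called (11.4%, beside 22.7% of 14629 protein-coding genes), 83 higher and 173 lower. The rises by the naming rule included Gm13054, whose exons overlap Nppa on the opposite strand (0.306 to 0.489 CPM in sham and 1.72 to 13.4 CPM in TAC hearts, 3.90 log2), Gm30873 (0.101 to 0.430 CPM in sham and 0.941 to 2.40 CPM in TAC hearts, 2.48 log2) and the dendritic RNA Bc1 (5.80 to 8.08 CPM in sham and 12.5 to 25.1 CPM in TAC hearts, 1.27 log2). Of the falls, 2010001K21Rik was at 2.92, 2.34, 1.54 and 2.56 CPM in Ctrl sham 1 to 4 and 0.387, 0.598, 0.669 and 0.0975 CPM in Ctrl TAC 1 to 4. 2010001K21Rik fell by 2.42 ± 0.367 log2 (SE, adjusted p = 0.000174). The others were Gm10635 (2.1 to 4.66 CPM in sham and 0.370 to 0.927 CPM in TAC hearts, -2.26 log2), Gm45909 (1.98 to 3.03 CPM in sham and 0.282 to 0.958 CPM in TAC hearts, -1.96 log2) and Gm14964 (2.70 to 5.41 CPM in sham and 0.774 to 1.51 CPM in TAC hearts, -1.83 log2). Reads of Gm13054, Gm30873, 2010001K21Rik and Gm14964 may come from overlapping genes. Gm45909 lies within the span of Ces1d on the same strand, outside its annotated exons, so its reads may come from Ces1d transcripts.

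Each TAC heart was also set against genes called without it. Its own level was compared with the mean of the 4 sham hearts, and it lay on the called side for 94.1% to 99.2% of these genes. The sham hearts had entered the calls and the genes differed by heart (2748 to 3546), so these shares are a description and do not rank the hearts. Summed levels of lists varied by heart. Collagens summed to 1.32 log2 above the sham mean in Ctrl TAC 4 and 1.09 in Ctrl TAC 2, and the mitochondrially encoded genes to 0.49 below it in Ctrl TAC 2 and 0.07 below it in Ctrl TAC 3. Immediate early genes were 0.38 to 0.42 above the sham mean in Ctrl TAC 2, 3 and 4 and 0.14 below it in Ctrl TAC 1.

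**Figure D5:**
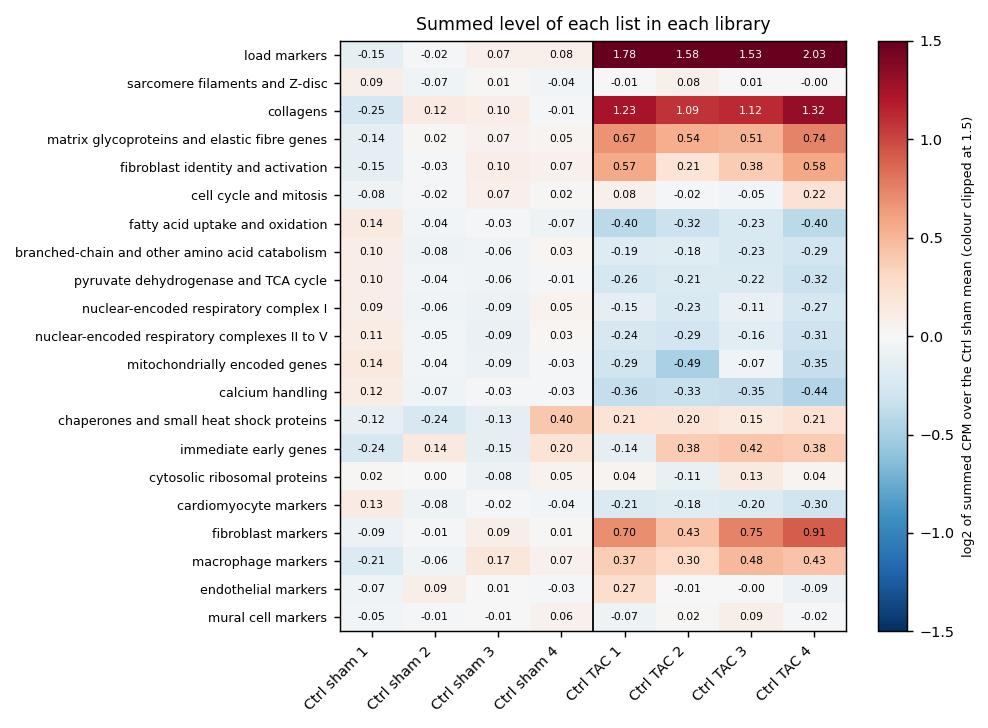
Rows are gene lists and columns the 8 Ctrl libraries; each cell gives the log2 of the summed CPM of the list over the mean of the 4 Ctrl sham libraries, with red above and blue below that mean and colour clipped at 1.5. Load markers lie at 1.53 to 2.03 and collagens at 1.09 to 1.32 in the 4 TAC columns, and the fuel oxidation rows lie below 0 in each of them.

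The same contrast in the KO animals, which have their own sham group, gave the same signs for 6 genes read side by side. No rule chose these 6, and all were called in Ctrl hearts, so they do not stand for the named genes as a set. Acta2, not called in Ctrl hearts, was at -0.40 log2 there and 0.08 in KO hearts. Acta1 rose by 3.66 log2 in KO hearts beside 3.91 in Ctrl hearts (adjusted p of the interaction 0.863), Nppa by 3.99 beside 2.98 (0.422), Cilp by 4.75 beside 3.43 (0.268) and Postn by 3.88 beside 2.56 (0.142). Atp2a2 fell by 0.77 log2 beside 0.52 (0.267) and Ces1d by 3.06 beside 1.99 (0.305). None of these interactions passed, which does not show that the responses were equal, and the KO group includes the library labelled KO TAC 4.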

How the data were processed

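Poly(A) RNA of the cardiac apex was sequenced in 16 mice, 8 of which are Ctrl animals. The submitters' processing notes name cutadapt 2.3, FastQC, HISAT2 2.1.0, edgeR 3.26.1 and the GRCm38 build. The program that counted reads, its annotation and its use of strand are not given in the sources used here. The authors deposited raw counts per gene, without normalization. CPM in the text were computed from these counts with TMM factors.

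The counts of all 16 libraries were fitted in R 4.3.3 with edgeR 4.0.16 (filterByExpr, TMM, robust quasi-likelihood), with 1 coefficient for each of the 4 groups. The contrast was Ctrl TAC minus Ctrl sham, and genes were called at a Benjamini-Hochberg adjusted p under 0.05 over all 18275 tested genes. The procedure was tested on simulated data. The SE given with log2 fold changes was derived from the F statistic of the edgeR test. It is the absolute log2 fold change divided by the square root of F. DESeq2 1.42.0, other size factors and filters, terms for the animal number series, the 8 Ctrl libraries alone and omission of each library were alternatives.

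Genes were named as the 12 largest rises and falls, the 5 largest gains and losses of CPM, up to 4 long noncoding genes and up to 3 members of each list in each direction. Most of those whose call was lost in an alternative were left out, and Col1a1, Col3a1, Fn1, Mhrt, Acta2, Mki67, Hspa1a, Hspa1b and the uncalled fibroblast markers were added after their values were seen. Some genes that the rule names are not reported here. The 47 gene lists and 21 marker lists, and the choice of Ctrl hearts, were made with earlier results of these data known. Of 1633 list symbols 1632 were matched. Gene positions are from GENCODE M21, which held 55227 of the identifiers (99.5%), and the promoters are from RefSeq. Ctrl libraries held 53169437 to 79357479 counts, and genes of few counts are measured less precisely.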

Additional observations from a re-analysis of the deposited data

Results flagged for a closer look

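For 496 groups of 4 libraries (each named gene, list sum and library measure in Ctrl sham and in Ctrl TAC), the highest or lowest library was compared with the other 3, and in 35 its gap to the nearest of them passed the limit of Dixon's rule, which chance alone passes in about 1 of 20 groups. No cause was tested for any of them.

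Ctrl TAC 2 stood apart in markers of other tissues. Its summed liver markers were at 70.3 CPM, lung markers at 5.75 CPM, white fat markers at 6.72 CPM, skeletal muscle markers at 5.30 CPM and Schwann cell markers at 28.3 CPM, each above the other 3 TAC hearts. Eif4ebp2 was high there too, at 79.9 CPM.

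Ctrl sham 4 was far above the other sham hearts for Hspa1a (346 CPM) and Hspa1b (437 CPM). It was also highest for Hspb8, at 315 CPM beside 274 to 277 CPM, and for the chaperone list, at 12119.6 CPM summed. Without this library neither Hspa1a nor Hspa1b kept the sign of its difference.

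Ctrl TAC 1 was high for Tnfrsf12a (117 CPM), Itga11 (5.86 CPM) and Cardinal (8.02 CPM of Gm12295), and low for Cacnb1 (7.00 CPM) and for immediate early genes (535 CPM summed). Ctrl TAC 3 was high for Tnni3 (2158 CPM), Ndufs1 (590.1 CPM) and Ccl11 (0.684 CPM), and low for Hspb6 (893 CPM) and for the matrix cross-linking list (1085 CPM summed). Ctrl TAC 4 was high for Sox9 (3.82 CPM) and valve and cartilage markers (4.78 CPM summed) and low for Rpl3l (110.2 CPM).

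Among sham hearts, Ctrl sham 1 was high for Kcne1 (1.29 CPM), Scn10a (2.39 CPM) and Sdhc (427 CPM) and low for Tuba1a (43.3 CPM) and Rpl3 (108 CPM). Ctrl sham 2 was low for Tgfbr3 (32.3 CPM) and Schwann cell markers (16.6 CPM summed) and high for clock genes (1106 CPM summed). Ctrl sham 3 was low for Pink1 (569 CPM) and high for the intermediate filament and intercalated disc list (5899 CPM summed), T and NK cell markers (2.59 CPM summed) and thymus markers (0.71 CPM summed).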

How the results depend on the processing

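Called genes numbered 2076 (1091 higher and 985 lower) at an adjusted p under 0.01. When each of the 16 libraries was left out in turn the count ran from 2694 to 3719, with 1406 to 1927 higher and 1288 to 1792 lower. DESeq2 called 4098 genes, DESeq2 size factors in edgeR 3644, the 8 Ctrl libraries alone 2836, no low-count filter 2966, and the term for the number series 2479. Genes called both with an alternative and in the reported fit had the same direction in every alternative. The median log2 fold change of all genes stayed between -0.001 and 0.008. Most genes whose call was lost in an alternative had been left out of the named genes, so the 173 of 176 that kept their side of the threshold in every fit leaving out 1 library are no measure of stability. The call changed with the series term for Myh6, Myh7, Pdgfra and Tcf21. Plvap and Tef did not pass 0.01. With at least 10 counts in every library, 169 of the named genes were fitted. No paired analysis was possible because the replicate numbers were given in accession order and pair no animals. The share called was 5.36% among the least expressed genes and 33.9% among the most expressed, and what sets it was not tested.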
